A study of Mus musculus with 6 samples.

Results

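The kinase cassette of the Hippo pathway and its upstream regulators were examined in whole embryonic mouse kidneys lacking YAP and TAZ in the stromal lineage. The set holds 10 genes, taken by symbol from the 24749 Ensembl gene identifiers of the deposited expression table: the kinase genes Stk3, Stk4, Lats1 and Lats2, the adaptor genes Sav1, Mob1a and Mob1b, and the regulator genes Nf2, Wwc1 and Wwc2. Each symbol matched 1 identifier, and all 10 passed the filter on low values, at a mean of at least 0.5 FPKM (sequenced fragments divided by transcript length and by library depth), which left 16899 genes. Kidneys were dissected at E15.5 (the embryonic day) from mice of mixed strain. The knockout group (3 libraries) carried Foxd1cre with conditional alleles of Yap, listed as Yap1, and of Taz, listed as Wwtr1 (genotype Foxd1cre; Yapc/c;Tazc/c). The wild-type group (3 libraries) was Cre negative, and whether it carried floxed alleles was not given in the sources used here. Foxd1 marks stromal progenitors, so the other lineages of the organ keep both genes, and every value is a mixture over all cell types. In such bulk samples fewer cells of a type and less RNA per cell cannot be told apart. Only knockout kidneys carried Foxd1cre, so effects of Cre or of its allele cannot be separated from loss of Yap and Taz.

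In the Hippo pathway the kinases MST2 and MST1 (genes Stk3 and Stk4), held by the scaffold salvador (Sav1), phosphorylate the kinases LATS1 and LATS2 and their activators MOB1A and MOB1B. The LATS kinases phosphorylate YAP and TAZ, which are then kept in the cytoplasm or degraded. Merlin (Nf2) brings LATS kinases to the membrane, and the WW-domain proteins KIBRA (Wwc1) and WWC2 act with merlin and LATS. Signalling through this cassette runs mainly by phosphorylation, which RNA levels do not measure. In other cells Lats2 is itself a known target of YAP and TAZ with TEAD factors, as part of a negative feedback. The values that follow give the RNA of the cassette in kidneys with and without its effectors in the stromal lineage.

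None of the 10 genes passed the test. The limma fit called 0 of 10 at a Benjamini-Hochberg adjusted p under 0.05, where 0.734% of all genes tested were called. At an unadjusted p under 0.05 the fit held 3 of the 10, Lats2 and Stk4 lower and Wwc1 higher in knockout kidneys, where 16.1% of all genes did. The same 3 genes were the ones whose groups did not overlap, against 24.3% of all genes tested (11.8% with all knockout libraries lower and 12.5% with all knockout libraries higher). A count of 3 in 10 lies near the share for groups that do not overlap, and nothing is read from it. The median log2 difference of the 10 genes was -0.04, beside -0.00 for all genes tested, and 7 of the 10 lay below 0.

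The libraries were of similar depth, approximated from the low end of the table at 12700000 to 15500000 fragments, and 19704 to 20013 genes had a value above 0. In the library where it was lowest, a cassette gene had from about 370 fragments (Wwc1) to about 3430 (Mob1a), reckoned on its longest annotated transcript. As a check of the labels, Wwtr1 measured 20.2, 17.7 and 18.5 FPKM in wild-type libraries 1, 2 and 3 and 13.5, 12.8 and 12.2 FPKM in knockout libraries 1, 2 and 3, a called decrease (log2 -0.51, SE 0.07, limma adjusted p = 0.0235). That call was lost with libraries set to equal sums of FPKM (adjusted p = 0.0517), and on leaving out wild-type library 2 or one of the knockout libraries, 1, 2 or 3 (0.0683, 0.0663, 0.113 and 0.115). Yap1 (45.5, 52.7 and 55.0 against 48.7, 43.2 and 44.2 FPKM) was not called (log2 -0.16, adjusted p = 0.378). Foxd1 measured 6.90, 6.86 and 9.16 FPKM against 5.20, 4.03 and 4.28 FPKM (adjusted p = 0.0886). Any effect of the Foxd1cre allele itself on Foxd1 was not tested. Wild-type library 3 stood apart in nerve and glia genes, with a summed level of 40.4 FPKM against 4.71 to 5.64 FPKM in the other libraries, and in skeletal muscle genes, with 42.5 against 5.14 to 10.7 FPKM. It was also lowest in proximal tubule genes (53.4 against 73.4 to 101.3 FPKM). Its liver sum was lowest too (15.3 against 19.8 to 29.6 FPKM), with 12.3 FPKM from Afp, the 1 of 3 liver genes lowest there. For the genes with separated groups, the log2 differences without that library were -0.33 for Lats2, -0.12 for Stk4 and 0.40 for Wwc1.

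**Figure D1:**
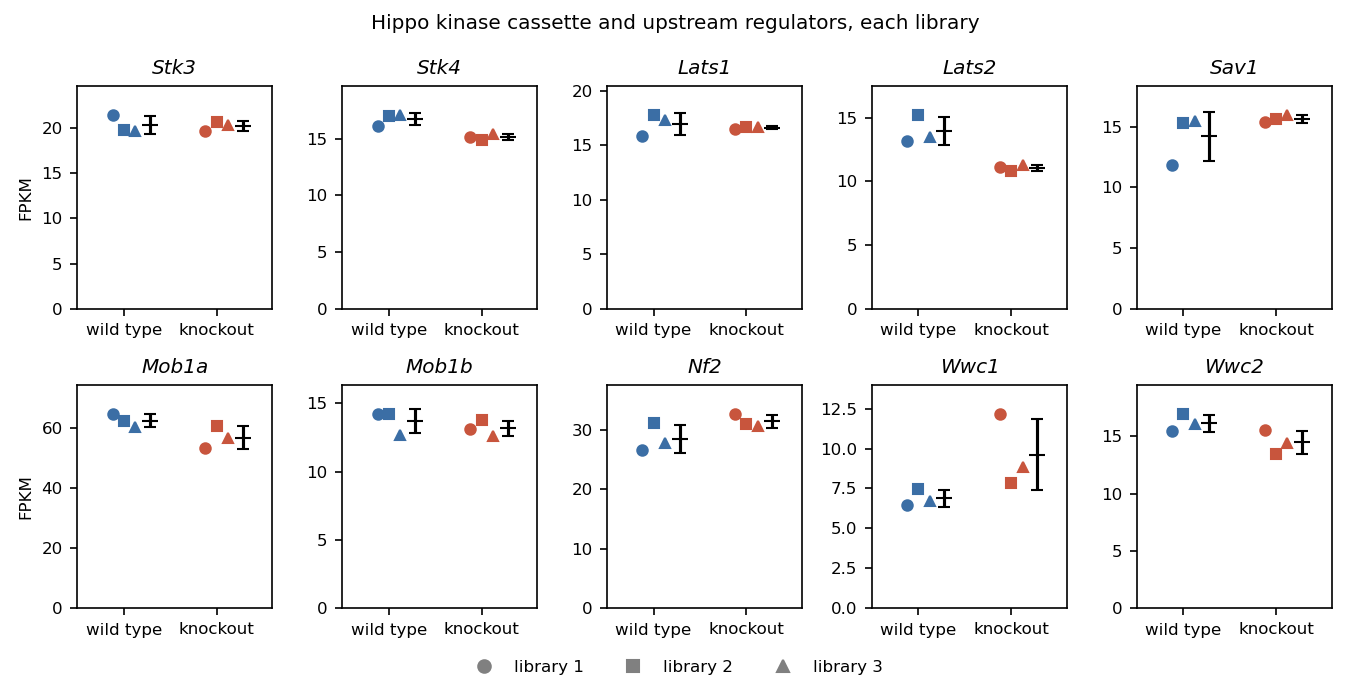
FPKM (vertical axis, from 0) of each of the 10 genes in the 3 wild-type libraries (blue) and the 3 knockout libraries (red), with marker shapes for libraries 1 to 3 and the mean with SD (n = 3) in black at the side. The knockout libraries lie below all wild-type libraries for Stk4 and Lats2 and above them for Wwc1, and the groups of the other 7 genes overlap.

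The members come largely as pairs of paralogues, and a value for each paralogue needs reads that tell them apart. Over the longest coding sequences in GENCODE M21, Mob1a and Mob1b were the closest pair, identical at 79.7% of aligned bases, followed by Stk3 and Stk4 at 76.7%, Lats1 and Lats2 at 67.2% and Wwc1 and Wwc2 at 66.6%. The longest run of aligned coding bases shared by a pair was 23, and the annotated transcripts of each pair had 0 stretches of 31 bases in common. The first 120 coding bases of Mob1a and Mob1b are printed as the closest case, with the 25 bases that differ in capitals.

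Mob1a: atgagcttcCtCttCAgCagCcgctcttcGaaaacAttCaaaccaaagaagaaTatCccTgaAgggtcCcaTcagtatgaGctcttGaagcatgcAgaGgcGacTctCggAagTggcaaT
Mob1b: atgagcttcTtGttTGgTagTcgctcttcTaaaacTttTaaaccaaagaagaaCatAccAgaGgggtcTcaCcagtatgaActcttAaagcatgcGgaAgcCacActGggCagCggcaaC

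Overlaps with other gene models bear on 3 members. Lats2 shares 2955 exon bases with Gm49361, a model on the same strand that has no entry among the deposited values. Of the 7020 stretches of 31 bases in annotated Lats2 transcripts, 2931 (41.75%) also occur in other genes, 2926 of them in Gm49361. Sav1 shares 1336 exon bases with Atl1 on the opposite strand (2.70 to 5.61 FPKM over the 6 libraries), and Wwc2 shares 995 with Cldn22, also on the opposite strand (0.802 to 1.70 FPKM). Strandedness of the libraries was not given in the sources used here, and the values of these 3 genes are uncertain by the reads of the overlaps.

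Promoters were inspected because YAP and TAZ act through TEAD factors, which bind the core letters GGAATG. RefSeq windows of 250 bases before to 50 bases after a start (GRCm38.p6) were held for 9 of the 10 genes, with 2 starts each for Lats2 and Nf2. GGAATG, searched on both strands (CATTCC on the other), was present in 4 of these 11 windows, those of Lats2, Mob1a, Sav1 and Wwc2, and in 14.7% of all 32851 windows. A match is a string of letters and not a binding site. The matches are shown in capitals within 30 bases on the strand of the gene, with the second of the 3 Wwc2 matches printed beside the first.

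Lats2 (chr14:57746102-57746131, minus strand): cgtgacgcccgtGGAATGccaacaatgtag
Mob1a (chr6:83325818-83325847, plus strand): tggccagaatagCATTCCtttaggagaaga
Sav1 (chr12:69987091-69987120, minus strand): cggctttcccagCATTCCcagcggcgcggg
Wwc2 (chr8:47990730-47990759, minus strand): gagcgagctgtgCATTCCtccgccctaccg
Wwc2 (chr8:47990621-47990650, minus strand): gggttaagctcaGGAATGtggcggcgagga

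The Lats2 match begins at base 5 of the transcript, counted with the start as base 1. Counted back from the RefSeq start with minus signs, the Mob1a match begins at -209, the Sav1 match at -106, and the Wwc2 matches at -203, -94 and -79. By the GENCODE M21 models, all 30 bases around each Wwc2 match lie in a Wwc2 exon. For Lats2 it is 22 of the 30 bases, and for Mob1a and Sav1 0. Of these 4 genes Lats2 had separated groups, and the other 3 did not. Stk4 and Wwc1, whose groups were also separated, had 0 matches in the window. The 150 bases upstream of the start are printed for Lats2, at the same start as the match, and for Wwc1, the members with the largest differences in either direction.

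Lats2 (chr14:57746124-57746273, minus strand): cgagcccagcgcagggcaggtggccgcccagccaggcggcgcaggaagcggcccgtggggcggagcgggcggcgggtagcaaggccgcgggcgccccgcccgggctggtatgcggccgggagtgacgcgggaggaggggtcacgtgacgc
Wwc1 (chr11:35980528-35980677, minus strand): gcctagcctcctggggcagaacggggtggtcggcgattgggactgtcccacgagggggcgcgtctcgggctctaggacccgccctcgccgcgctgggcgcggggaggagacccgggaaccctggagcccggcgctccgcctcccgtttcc

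Both windows are rich in G and C, at 71.7% for Lats2 and 68.0% for Wwc1 over the full 300 bases. Neither upstream stretch holds GGAATG on either strand.

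Stk3 (chromosome 15, 34875496 to 35178921, GRCm38) encodes MST2, the more abundant of the 2 MST kinases at the RNA level. It measured 21.5, 19.8 and 19.7 FPKM in wild-type libraries 1, 2 and 3 and 19.7, 20.7 and 20.4 FPKM in knockout libraries 1, 2 and 3. The groups overlapped throughout, and knockout kidneys held 99.6% of the wild-type mean. The log2 difference was -0.01 on the log2(FPKM + 1) scale, with a 95% confidence interval from -0.14 to 0.13 (limma adjusted p = 0.974). Stk4 (chromosome 2, 164070322 to 164155524), encoding MST1, measured 16.1, 17.0 and 17.1 FPKM in the wild type and 15.1, 14.9 and 15.4 FPKM in the knockout. Every knockout library lay below every wild-type library, and the gap between the nearest libraries was small. Knockout kidneys held 90.6% of the wild-type mean, and the log2 difference of -0.13 (interval -0.26 to -0.00) missed the threshold (adjusted p = 0.302). Sav1 (chromosome 12, 69965012 to 69987002), the scaffold that joins MST to LATS, measured 11.8, 15.3 and 15.48 FPKM in the wild type and 15.3, 15.6 and 16.0 FPKM in the knockout. Wild-type library 1 stood below the other 5, which lay close together. The log2 difference of 0.14 (interval -0.09 to 0.38, adjusted p = 0.529) became 0.02 without that library.

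Lats1 (chromosome 10, 7681214 to 7716460) encodes one of the kinases that phosphorylate YAP and TAZ. It measured 15.8, 17.8 and 17.3 FPKM in the wild type and 16.5, 16.6 and 16.7 FPKM in the knockout, so the knockout values lay inside the wild-type range. Its log2 difference was -0.03 (interval -0.17 to 0.12, adjusted p = 0.859). Lats2 (chromosome 14, 57689662 to 57758388) encodes the other kinase and had the smallest p of the set. It measured 13.1, 15.2 and 13.5 FPKM in wild-type libraries 1, 2 and 3 and 11.1, 10.8 and 11.3 FPKM in knockout libraries 1, 2 and 3. The highest knockout library lay under the lowest wild-type one, and the knockout libraries varied less (11.1 ± 0.241 against 13.9 ± 1.10 FPKM, SD, n = 3 each). Knockout kidneys held 79.5% of the wild-type mean. The log2 difference was -0.30 (SE 0.07, interval -0.47 to -0.14), and after adjustment over all genes it did not pass (limma adjusted p = 0.129). The interval corresponds to between 72.1% and 90.9% of wild type. The summed levels of stroma and of smooth muscle markers also stood lower in knockout kidneys, as given with the cell type markers. Single stroma markers were mixed, with 6 of 7 below 0, 1 above 0 and 1 called (Ntn1, log2 -1.62). Tcf21 stood at 97.4% and Pdgfra at 110.7% of the wild-type mean. Foxd1, at 58.9%, is also among the 7, and its value may reflect the Foxd1cre allele, which was not tested. The part of stroma and smooth muscle in the Lats2 value was not tested either.

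Mob1a (chromosome 6, 83326016 to 83343776) encodes a MOB1 adaptor, which binds and activates LATS, and had the highest level of the set. It measured 64.5, 62.3 and 60.2 FPKM in the wild type and 53.2, 60.5 and 56.5 FPKM in the knockout. The groups overlapped only at knockout library 2 and wild-type library 3. The log2 difference was -0.13 (interval -0.28 to 0.01, adjusted p = 0.345), and -0.09 without knockout library 1. Mob1b (chromosome 5, 88720855 to 88764220), the other MOB1 adaptor, measured 14.2, 14.2 and 12.7 FPKM in the wild type and 13.2, 13.8 and 12.6 FPKM in the knockout. Its groups overlapped, at a log2 difference of -0.05 (interval -0.21 to 0.11, adjusted p = 0.762). Without knockout library 2 or wild-type library 3 the difference was -0.08 or -0.10, and without knockout library 3, wild-type library 1 or wild-type library 2 it was -0.02 each.

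Nf2 (chromosome 11, 4765845 to 4849536), encoding merlin, measured 26.5, 31.1 and 27.7 FPKM in the wild type and 32.6, 31.1 and 30.6 FPKM in the knockout. Wild-type library 2 lay within the knockout range and the other wild-type libraries below it. The log2 difference was 0.14 (interval -0.02 to 0.30, adjusted p = 0.365), and 0.09 without wild-type library 1. Wwc1 (chromosome 11, 35838400 to 35980527), encoding KIBRA, had the largest difference and the lowest level of the set. It measured 6.48, 7.46 and 6.70 FPKM in wild-type libraries 1, 2 and 3 and 12.2, 7.87 and 8.87 FPKM in knockout libraries 1, 2 and 3. All knockout libraries lay above all wild-type libraries, and knockout library 1 stood far above the other 2. The knockout mean of 9.63 ± 2.24 FPKM was 140.0% of the wild-type mean of 6.88 ± 0.517 FPKM (SD, n = 3 each). The log2 difference of 0.41 (SE 0.14, interval 0.08 to 0.75) missed the threshold (limma adjusted p = 0.237), and without knockout library 1 it was 0.25 (adjusted p = 0.355). Beside it, the summed level of ureteric bud and collecting duct markers, an epithelium that Foxd1cre does not target, lay higher in every knockout library, with 0 of 6 markers called, 3 without overlap and 1 below 0. Their part in the Wwc1 value was not tested. Wwc2 (chromosome 8, 47823959 to 47990924), its paralogue, measured 15.46, 16.9 and 16.1 FPKM in the wild type and 15.55, 13.5 and 14.4 FPKM in the knockout. Knockout library 1 lay within the wild-type range and the other knockout libraries below it. The log2 difference was -0.15 (interval -0.32 to 0.01, adjusted p = 0.349).

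**Figure D2:**
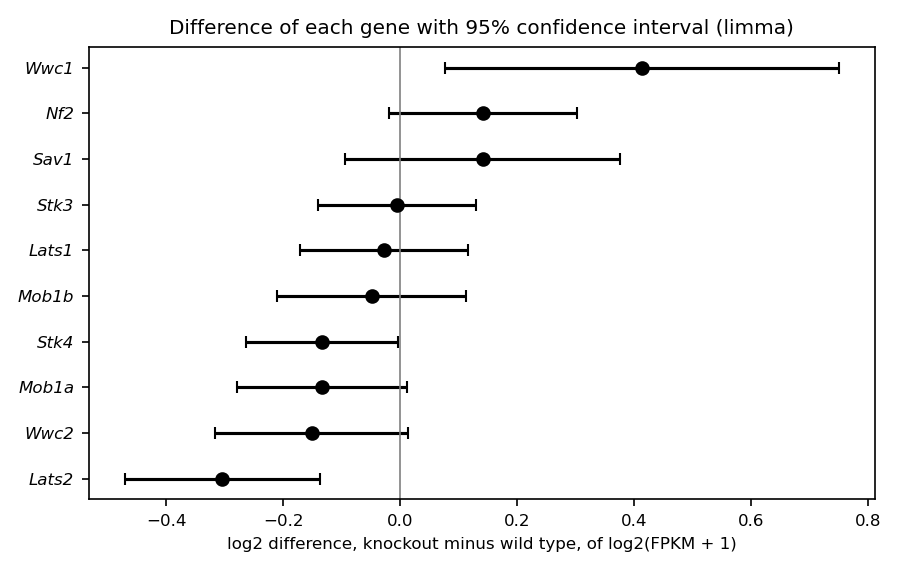
Log2 difference (knockout minus wild type, horizontal axis, on the log2(FPKM + 1) scale) of each gene with its 95% confidence interval from limma, ordered by size. Lats2 lies lowest at -0.30 and Wwc1 highest at 0.41, the intervals of Lats2, Stk4 and Wwc1 leave out 0, and none of the 10 passed the adjustment over all genes.

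The intervals give the differences in whole-kidney RNA that the data leave possible. For Stk3, Lats1 and Mob1b they ran from 90.7% to 109%, from 88.8% to 108% and from 86.4% to 108% of wild type. These are ratios on the log2(FPKM + 1) scale, over a mixture in which stroma is a part. The widest interval was that of Wwc1, from 105.5% to 168%. The median coefficient of variation of the 10 genes was 6.24% in wild-type and 3.01% in knockout libraries. For all genes tested, a set not matched for level, it was 8.71% and 7.28%. Single members ran up to 14.5% in wild-type libraries (Sav1) and 23.3% in knockout libraries (Wwc1).

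FPKM is a level per length, so the members can be ranked, though the levels of Lats2, Sav1 and Wwc2 carry the uncertainty of the overlaps. In wild-type kidneys the order by mean was Mob1a (62.3 FPKM), Nf2 (28.5), Stk3 (20.3), Lats1 (17.0), Stk4 (16.7), Wwc2 (16.2), Sav1 (14.2), Lats2 (13.9), Mob1b (13.7) and Wwc1 (6.88). Mob1a, Nf2 and Stk3 each lay above the next gene in all 3 wild-type libraries, and Mob1b lay above Wwc1 likewise. From Lats1 down to Mob1b, the ranges of neighbours in this order overlapped. In knockout kidneys the first 4 places were unchanged, and Sav1 (15.6 FPKM) came next after Lats1 (16.6), which lay above it in all libraries of both genotypes. Lats2 (11.1 FPKM) stood in place 9, each of its libraries being under those of Mob1b (13.2), while its range overlapped that of Wwc1 (9.63).

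The ratio of 2 paralogues within a library does not depend on how libraries are scaled to each other, and 4 pairs were compared. Lats1 exceeded Lats2 by a factor of 1.20, 1.17 and 1.28 in wild-type libraries 1, 2 and 3 and by 1.48, 1.54 and 1.48 in knockout libraries 1, 2 and 3. The knockout ratios were all higher, with a difference of 0.30 in the mean log2 ratio (0.28 ± 0.070 against 0.58 ± 0.032, SD, n = 3 each). The exact two-sided permutation test gave p = 0.1, the smallest that 3 against 3 allows, and adjusted p = 0.2 over the 4 pairs. Lats1 thus made up 53.9% to 56.2% of the summed LATS level in wild-type and 59.7% to 60.6% in knockout libraries. These percentages carry the uncertainty of the exons that Lats2 shares with Gm49361. The ratio of Wwc1 to Wwc2 was 0.419, 0.441 and 0.416 in wild-type and 0.782, 0.584 and 0.617 in knockout libraries, again without overlap. Its mean log2 ratio differed by 0.62 (exact permutation p = 0.1, adjusted p = 0.2), while both genes summed to 24.1 ± 3.26 FPKM in the knockout against 23.0 ± 1.25 FPKM in the wild type (SD, n = 3 each).

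The other pairs overlapped between genotypes. Stk3 exceeded Stk4 by a factor of 1.34, 1.17 and 1.16 in wild-type and 1.30, 1.39 and 1.32 in knockout libraries, with wild-type library 1 inside the knockout range (difference of mean log2 ratio 0.14, exact permutation p = 0.3, adjusted p = 0.3). Mob1a exceeded Mob1b by a factor of 4.54, 4.38 and 4.75 in wild-type and 4.04, 4.40 and 4.47 in knockout libraries (difference -0.08, exact permutation p = 0.3, adjusted p = 0.3). With 20 assignments of 6 libraries, no pair could pass at 0.05.

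**Figure D3:**
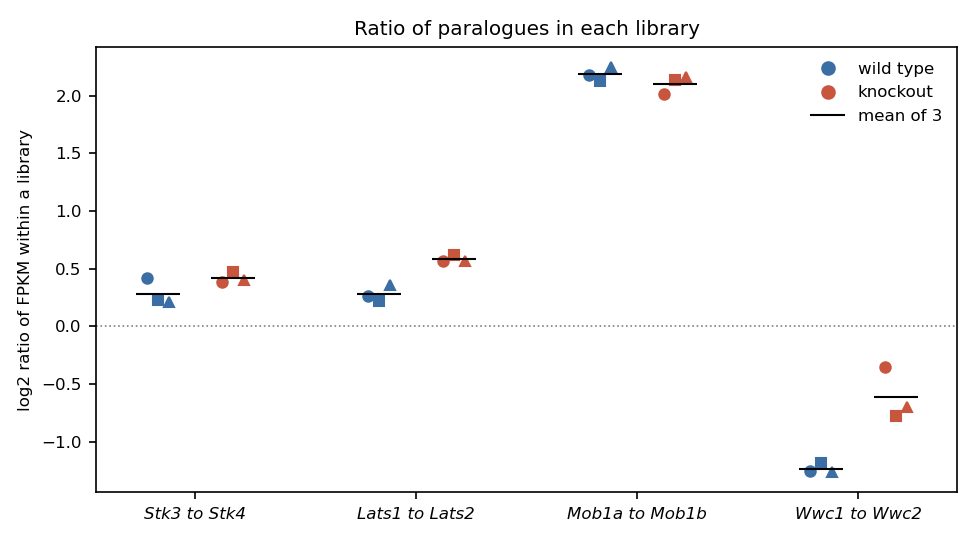
Log2 ratio of the FPKM values of 2 paralogues within each library (vertical axis), for 4 pairs, in wild-type (blue) and knockout (red) libraries, with marker shapes for libraries 1 to 3 and a bar at the mean of 3. The groups are separated for Lats1 to Lats2 and for Wwc1 to Wwc2, and overlap for Stk3 to Stk4 and Mob1a to Mob1b.

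Genes that surround the cassette were taken from 9 lists holding 75 genes, all of which were tested. Of the 75, 1 was called, and 18 had an unadjusted p under 0.05, 9 higher and 9 lower. Groups did not overlap for 25 of them, 11 higher and 14 lower. Over all genes tested the shares were 0.734% called, 16.1% at an unadjusted p under 0.05 and 24.3% without overlap. The median log2 difference was 0.01. Mob3b, a MOB protein related to the MOB1 adaptors, rose from 3.82, 4.10 and 4.24 FPKM in wild-type libraries 1, 2 and 3 to 6.20, 6.40 and 6.24 FPKM in knockout libraries 1, 2 and 3. The groups were far apart, at 155% of wild type (log2 0.53, SE 0.08, limma adjusted p = 0.0305). The call was lost when any 1 library other than wild-type library 3 was left out (adjusted p from 0.068 to 0.155) and with libraries set to equal sums of FPKM (0.0608).

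In the list of MST-parallel kinases, which also phosphorylate LATS, 0 of 11 were called and 2 lay lower with an unadjusted p below 0.05 (list median 0.02). These were Map4k5 (36.4 ± 1.01 against 30.9 ± 0.397 FPKM, log2 -0.23, adjusted p = 0.0988) and Taok1 (37.6 ± 2.11 against 32.7 ± 0.268 FPKM, log2 -0.19, adjusted p = 0.181). Of the 8 NDR kinases and other MOB and Furry scaffolds, 1 was called, Mob3b, and Fry, a scaffold of NDR kinases, had a log2 difference of -0.31 (adjusted p = 0.201). The STRIPAK complex, a phosphatase assembly that dephosphorylates MST kinases, had 0 of 16 genes called, with 2 higher and 3 lower unadjusted. Its genes with the smallest p were Slmap (log2 -0.20, adjusted p = 0.166), whose product brings MST kinases to the complex, and Pdcd10 (log2 -0.20, adjusted p = 0.191). Of 6 RASSF adaptors, which bind MST kinases, 0 were called and 1 was lower unadjusted. Rassf2 had a log2 difference of -0.20 (adjusted p = 0.288) and Rassf4 of -0.19 (adjusted p = 0.344).

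Among 3 genes of Ajuba LIM proteins, which restrain LATS, 0 were called either way (Limd1 log2 0.20, Wtip -0.11, adjusted p = 0.395 and 0.439). Of 8 angiomotins and membrane partners 0 were called, and Tjp1, encoding a tight junction scaffold, had a log2 difference of -0.18 (adjusted p = 0.182). Of the 3 ERM relatives of merlin 0 were called. Ezr, encoding ezrin, measured 70.0, 71.7 and 68.8 FPKM in the wild type and 87.4, 83.1 and 81.6 FPKM in the knockout, without overlap (log2 0.26, adjusted p = 0.0861), and Rdx had a log2 difference of -0.12 (adjusted p = 0.372). Among 9 apicobasal polarity genes 0 were called and 2 were higher unadjusted, Pard6b (7.40 ± 0.303 against 10.2 ± 0.512 FPKM, log2 0.41, adjusted p = 0.0555) and Scrib (10.4 ± 1.40 against 14.8 ± 2.19 FPKM, log2 0.46, adjusted p = 0.172). Knockout library 1, which was highest for Wwc1, was highest for 6 of the 18 genes that the naming rule took from the lists, and wild-type library 1 was highest for another 6. Of 11 partners of phosphorylated YAP and TAZ (14-3-3 proteins, casein kinases and ubiquitin ligase subunits) 0 were called and 2 were higher unadjusted, the casein kinase genes Csnk1d (log2 0.23, adjusted p = 0.178) and Csnk1e (log2 0.28, adjusted p = 0.285).

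**Figure D4:**
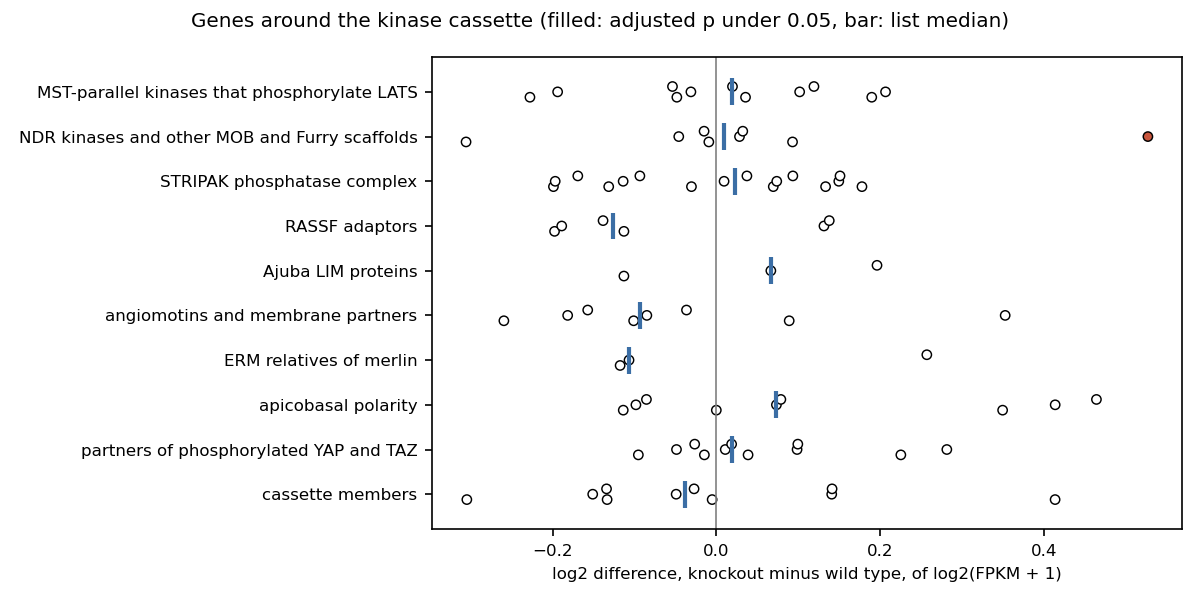
Log2 difference (knockout minus wild type, horizontal axis, on the log2(FPKM + 1) scale) of every gene in 9 lists around the cassette and of the 10 cassette genes, 1 point a gene, with the list median as a blue bar. The single filled point, Mob3b at 0.53, is the 1 gene with an adjusted p under 0.05.

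The tissue was kidney by its markers: nephron progenitor, podocyte, ureteric and endothelial lists were all detected, and nephron progenitor genes summed to between 101.9 and 114.5 FPKM in every library. Stroma markers (7 genes, 1 called lower, 6 below 0, median log2 -0.25) summed to between 274.4 and 283.3 FPKM in wild-type libraries and between 246.3 and 259.9 FPKM in the knockout. Smooth muscle markers (5 genes, 3 called lower, median -0.84) summed to between 149 and 180.1 FPKM against between 53.2 and 78.7 FPKM. Ntn1 (netrin-1, log2 -1.62), Myl9 (log2 -1.60) and Acta2 (smooth muscle actin, log2 -0.84) fell (adjusted p = 0.00138, 0.0302 and 0.023), and Wnt4, an early nephron signal, rose (log2 0.63, adjusted p = 0.0402). The call of Acta2 was lost without any 1 library other than knockout library 3 (adjusted p up to 0.126), and that of Myl9 without any 1 library other than knockout library 1 (up to 0.136). The call of Wnt4 was lost without knockout library 1, 2 or 3 or wild-type library 2 (up to 0.163), with no filter on low values (0.0628), with equal sums of FPKM (0.0883) and without the robust option (0.0759). Ureteric bud and collecting duct markers (6 genes, 0 called, 5 above 0, median 0.18) summed to between 119.7 and 125.3 FPKM in wild-type libraries and between 139.8 and 145.5 FPKM in the knockout. Early nephron markers (5 genes, 1 called higher, median 0.10) summed to between 223.5 and 241.7 FPKM against between 247.1 and 252.5 FPKM.

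The remaining marker lists overlapped in their sums and had 0 genes called: nephron progenitor (6 genes tested, median log2 0.06), podocyte (4, 0.05), proximal tubule (4, 0.00), endothelium (5, 0.02), macrophage (4, -0.09), red blood cell (5, 0.10), adrenal cortex (1 of 4 tested, 0.00), nerve and glia (3 of 5 tested, -1.21), skeletal muscle (4, -0.42) and liver (3, 0.26). No marker in any list was at 0 in all libraries.

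The genes outside the cassette whose pattern over the 6 libraries was most like that of Lats2 were found by Pearson correlation of log2(FPKM + 1) over all 16899 genes tested. They were Zbtb8b (r = 0.996), Gbf1 (0.996), Apool (0.996), Camsap2 (0.994) and Gpr34 (0.991). With 6 libraries in 2 groups and this many genes ranked, such values describe these libraries only. All 5 genes had separated groups and lower means in knockout kidneys, which follows from choosing them by likeness to Lats2. Their log2 differences ran from -0.47 (Gpr34) to -0.11 (Camsap2), and 0 of the 5 were called.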

How the data were processed

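RNA of whole dissected E15.5 kidneys was sequenced in 3 knockout and 3 wild-type libraries, grouped by their titles. The tools named are bcl2fastq 2.17.1.14 and Salmon, and the build is GRCm38 (mm10), per the submitters' processing notes. The authors deposited FPKM values per Ensembl gene, and the annotation release, gene summing and filters were not given in the sources used here. Symbols (24469 of 24749 identifiers matched), positions and transcripts came from GENCODE M21 (GRCm38), and promoters from RefSeq (GRCm38.p6). No counts were at hand, so log2(FPKM + 1) was fitted across all genes with limma 3.58.1 (R 4.3.3; genotype only, trend and robust moderation), with Benjamini-Hochberg adjustment over 16899 genes (mean 0.5 FPKM or more). The fit was tested on simulated data. Depth was approximated from the lowest steps on genes with 1 transcript of at least 2 kb. Ratios were tested by exact permutation over 20 assignments.

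Separate embryos or litters behind the replicates were not given in the sources used here, and p-values measure the spread between libraries, which may be technical. The members and lists were chosen with earlier results of these data known. Named genes are the 10 members, Yap1, Wwtr1 and Foxd1, from each list the called genes or the 2 with the smallest p, up to 4 called markers, and the 5 genes most like Lats2. One gene that this rule names is not reported here. Alternatives were a pseudocount of 0.1, no filter on low values, equal sums, quantile normalization, no robust option, a replicate block and leaving out each library.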

Additional observations from a re-analysis of the deposited data

How the results depend on the processing

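None of the 10 members was called under any of the 12 alternatives, and the smallest adjusted p of a member ranged from 0.102 (quantile normalization) to 0.324 (without knockout library 3). The count of members at an unadjusted limma p under 0.05, 3 as reported, ranged from 1 (without wild-type library 3) to 5 (quantile normalization). With equal sums of FPKM it was 2, Lats2 and Mob1a, and Stk4 and Wwc1 were no longer among them. Of 120 recomputed member values, 117 kept their direction. The exceptions lay near 0: Stk3 without knockout library 1 (log2 0.015) or wild-type library 1 (0.033), and Lats1 without wild-type library 2 (0.0050). With single libraries left out, Stk3 ranged from -0.025 to 0.033 and Lats1 from -0.074 to 0.0050. Log2 differences then ranged from -0.34 to -0.24 for Lats2, from 0.25 to 0.53 for Wwc1 and from -0.16 to -0.12 for Stk4. All 32 recomputed paralogue ratios kept their direction. The count of called pathway genes, 1 as reported, was 0 with equal sums of FPKM and ranged from 0 to 1 with single libraries left out. Over all genes, 124 calls became 68, 58 and 59 without knockout library 1, 2 and 3. They became 106, 54 and 158 without wild-type library 1, 2 and 3.

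With the replicate number as a block, 32 of all genes, 0 members and 0 pathway genes were called, and the smallest adjusted p of a member was 0.311. The block also ended the calls of Mob3b (adjusted p = 0.163), Wwtr1 (0.108), Acta2 (0.127), Myl9 (0.232) and Wnt4 (0.169), and Ntn1 was called (0.0355). Correlations of the deviations of same-numbered libraries (0.0238, -0.0422 and 0.0504) lay within the range for other-numbered libraries (-0.0926 to 0.081). With 3 libraries a group, these values cannot tell whether same-numbered libraries share a litter or a preparation. For the paralogue ratios the block gave sign-flip permutation p = 0.25 for LATS and WWC, the smallest it allows, and 0.5 for the other pairs. The number of libraries, 3 a group, limits the precision.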
